A study of Homo sapiens with 6 samples.

Results

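The genes described here are 10 long non-coding RNAs (lncRNAs) that are widely studied as regulators: NEAT1, MALAT1, NORAD, OIP5-AS1, PVT1, CCAT1, MIR22HG, LUCAT1, KCNQ1OT1 and H19. They were matched by symbol in gencode release 44, and 9 of the 10 symbols were found among the 60676 genes of the tables, of which 16739 are annotated as lncRNA. CCAT1 has no gene of that symbol in this annotation. The cells were HT29, an established line from a human colorectal adenocarcinoma, with the genotype labelled WT. They were grown for 48 h in control medium (untreated), in medium without histidine (Hdepl) or in medium without tryptophan (Wdepl), and RNA of 2 samples per group was sequenced, which gave 6 libraries. The study used tryptophan depletion as a control for amino acid shortage in general.

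Several features of the design limit what a difference between these groups stands for. HT29 is a single line, and the sources used here do not say whether the 2 samples of a group were separate cultures. The p-values rest on the spread between samples of a group, which may be technical. In limma the spread of a gene is drawn toward that of genes of similar level. Where replicates differ more than for most genes, as for NEAT1, MALAT1 and PVT1 in untreated cells, the SE and p-value can understate the gene's own spread. RPMI was the base of the medium without histidine and DMEM F-12 that of the medium without tryptophan, and for the RNA-seq controls the base is not given in the sources used here. Both depleted media were given dialysed, heat-inactivated serum, and the serum of the RNA-seq controls is not given in the sources used here. Effects of the base medium, of the serum and of the missing amino acid cannot be told apart. The libraries were made from RNA with a poly(A) tail and held 46390819 to 64388876 recovered reads on genes. All 8 markers of colon epithelium fixed for this work had reads in every library, with a summed normalised read count of 242618 and 254132 in untreated cells, 204776 and 213712 in Hdepl and 358901 and 356053 in Wdepl. The groups did not overlap and stood in the same order as the share of all reads that fell on the 9 lncRNAs found. KRT18 gave the largest part of the sum, with a mean of 120874 in untreated cells, 83724 in Hdepl and 159235 in Wdepl. The means of KRT18, LGALS4, VIL1 and CEACAM5 stood in that order, and those of KRT20, CDH1, EPCAM and CDX2 did not. Of these 8 markers, 3 were higher and 5 lower than in untreated cells without histidine, and 4 were higher and 1 lower without tryptophan (limma). The part of these markers in the results was not tested. Leukocyte markers summed to 54.2 to 384, most of it CD14, with PTPRC at or near 0. That sum was highest in Wdepl, at 384 and 369, and its part in the results was not tested. Fibroblast markers summed to 30.7 to 73.6 and endothelial markers to 26.6 to 55.7. Of 8 RNAs that carry no poly(A) tail, RN7SL1 was the one with more than a few reads. It was higher than in untreated cells without histidine (log2 fold change 0.71, limma adjusted p = 4.7e-12) and without tryptophan (0.28, limma adjusted p = 2.3e-07), and its part in the results was not tested.

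LncRNAs are transcripts that are spliced or capped like mRNAs but are not known to be translated into a functional protein. NEAT1 and MALAT1 stay in the nucleus, where NEAT1 is the scaffold of paraspeckles and MALAT1 lies in nuclear speckles, both of them bodies rich in proteins that bind RNA. NORAD and OIP5-AS1 work mainly through what binds to them, Pumilio proteins for NORAD and the microRNA miR-7 for OIP5-AS1. MIR22HG and H19 are host transcripts from which microRNAs are cut, while KCNQ1OT1 and H19 belong to the imprinted cluster at the tip of the short arm of chromosome 11. PVT1 and CCAT1 are transcribed beside the oncogene MYC, and LUCAT1 takes its name from lung cancer.

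Levels are given here as normalised read counts, that is, reads divided by a size factor that puts all 6 libraries on one scale. Fold changes are on the log2(normalised read count + 1) scale and come from limma, fitted over all genes with a mean of at least 10, with the Benjamini-Hochberg adjusted p called when under 0.05. H19 stayed under that minimum in each comparison, so 8 of the 10 genes were tested. After histidine depletion 4 of the 8 were higher than in untreated cells (MIR22HG, LUCAT1, MALAT1 and PVT1) and 2 were lower (NEAT1 and NORAD), while OIP5-AS1 and KCNQ1OT1 did not pass the test. Among all 18288 genes tested in that comparison 39.1% were called higher and 38.2% lower. After tryptophan depletion 7 of the 8 were higher and KCNQ1OT1 was lower, against 36.1% higher and 34.8% lower among all 17960 genes tested. Between the depletions, 4 were higher without histidine (MIR22HG, LUCAT1, PVT1 and KCNQ1OT1) and 4 were higher without tryptophan (NEAT1, MALAT1, NORAD and OIP5-AS1), against 39.9% and 38.4% of 18276 genes. The median log2 fold change of the 8 was 0.25 after histidine depletion and 1.03 after tryptophan depletion, and it was 0.01 over all genes in both comparisons. In bulk RNA, fewer cells that express a gene and less of its RNA per cell cannot be told apart.

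**Figure D1:**
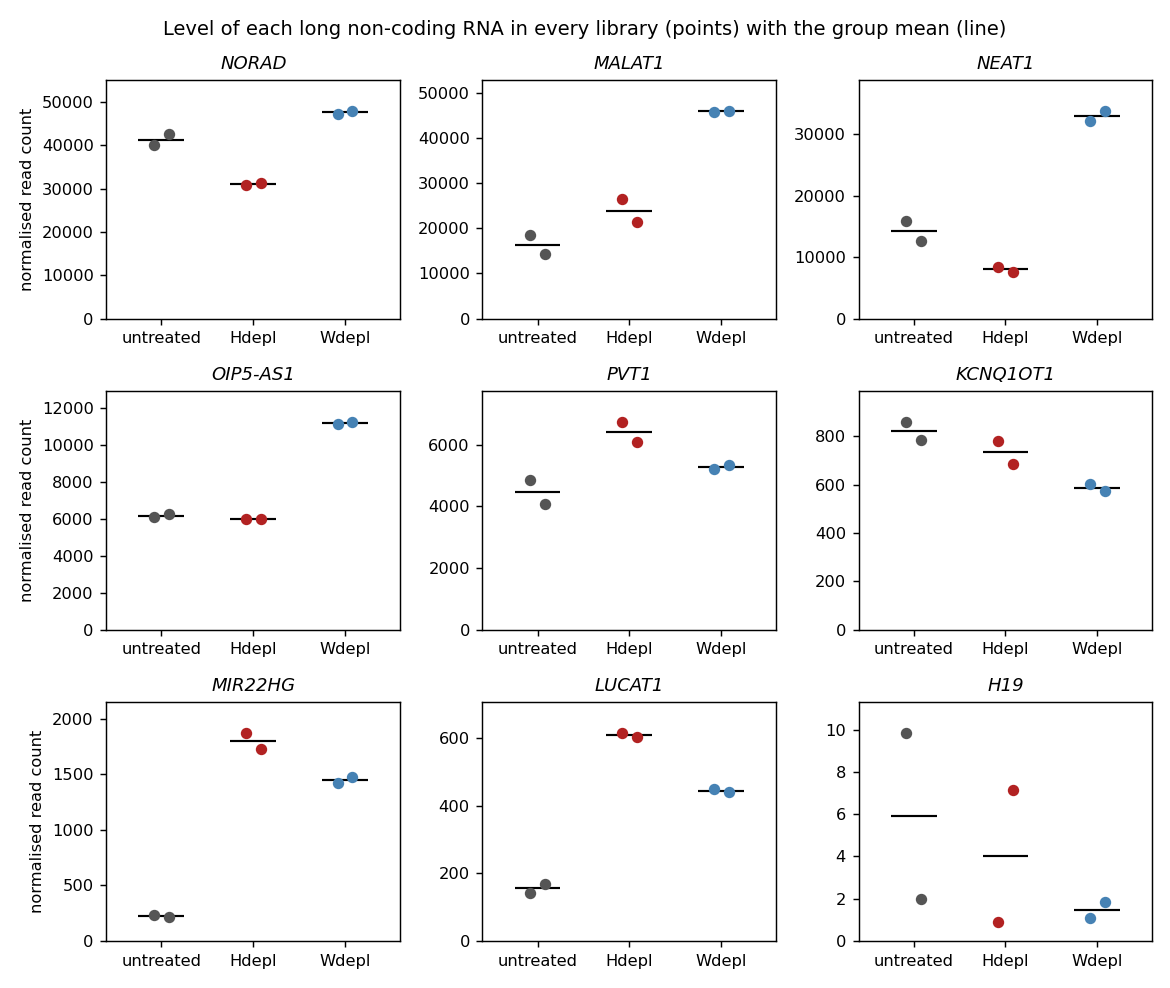
Normalised read count (vertical axis, linear from 0) of the 9 lncRNAs found in the tables, with a panel per gene, a point per library and a line at the mean of the 2 libraries of a group. The untreated points of MIR22HG and LUCAT1 lie far below those of both depletions, NEAT1 and NORAD are lowest in Hdepl and highest in Wdepl, and H19 stays under 10 in each library.

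Together the 9 genes took 0.171% and 0.155% of all reads in the untreated libraries, 0.140% and 0.129% in Hdepl and 0.265% and 0.269% in Wdepl. As a share of the reads on lncRNA genes these were 16.4% and 15.8%, 14.6% and 13.8%, and 21.8% and 22.1%. The groups did not overlap on either measure, with Hdepl lowest and Wdepl highest. All lncRNA genes together took 1.04% and 0.978% of reads in untreated cells, 0.963% and 0.932% in Hdepl and 1.22% and 1.22% in Wdepl, the same order. From untreated to Hdepl the mean share of NORAD went from 0.080% to 0.053% and that of NEAT1 from 0.028% to 0.014%. OIP5-AS1, KCNQ1OT1 and H19 also took smaller shares in Hdepl. MALAT1 went from 0.032% to 0.041%, and PVT1, MIR22HG and LUCAT1 also took larger shares.

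Abundance, by which these genes are often introduced, did not hold for all of them in HT29. Per kilobase of annotated exon, NORAD stood first of all lncRNA genes in each group, at 7637 ± 332 (SD, n = 2 here and below) in untreated cells. Of the genes described here, MALAT1 followed at 1571 ± 276 and NEAT1 at 626 ± 100 normalised reads per kilobase. OIP5-AS1 had 277 ± 6.37 and PVT1 176 ± 22.0. MIR22HG had 73.0 ± 4.16, LUCAT1 9.40 ± 1.06, KCNQ1OT1 8.87 ± 0.56 and H19 1.71 ± 1.60. LUCAT1 and KCNQ1OT1 were not separated by their spread in untreated cells. Annotated exons cover 92625 bases of KCNQ1OT1, which keeps its value per kilobase low.

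The order of the genes moved with the medium. In Hdepl, MIR22HG reached 579 ± 33.1 per kilobase and stood above NEAT1 at 351 ± 22.8, OIP5-AS1 at 269 ± 0.14 and PVT1 at 252 ± 17.7, and the last of these pairs differed by less than 1 SD of PVT1. In Wdepl, NEAT1 rose to 1447 ± 50.8, above OIP5-AS1 at 501 ± 3.87 and MIR22HG at 466 ± 11.1. Among the lncRNA genes, MIR22HG ranked 440 per kilobase in untreated cells, 34 in Hdepl and 48 in Wdepl. LUCAT1 ranked 2433, 859 and 1185 in the same order of groups.

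The pair of nuclear body RNAs came apart after histidine depletion and rose together after tryptophan depletion. NEAT1 (ENSG00000245532) is a single-exon gene on the plus strand at chr11:65422774-65445540 of GRCh38, and MALAT1 (ENSG00000251562), also a single exon on that strand, lies 52099 bases further on at chr11:65497640-65508073. Both are cut at the 3′ end in front of a tRNA-like RNA by the enzyme that matures tRNAs, RNase P, and an A-rich stretch just before the cut closes into a triple helix that stands in for a poly(A) tail. These stretches are shown because both RNAs can end without a poly(A) tail, while the libraries were selected for one. The 30 bases before each tRNA-like gene, read from GRCh38 on the plus strand, are given with the 16 bases richest in A in capitals:

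MALAT1, chr11:65506087-65506116: ttttctagcttaaaAAAAAAAAAAGCAAAA

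NEAT1, chr11:65445511-65445540: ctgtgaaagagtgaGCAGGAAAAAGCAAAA

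In MALAT1, 14 of the 16 capital bases are A, and in NEAT1 10 of 16. The tRNA-like genes that follow are annotated over 57 bases (ENSG00000274072, inside MALAT1) and 58 bases (ENSG00000275948, just past the end of NEAT1). How far each form of NEAT1 or MALAT1 was captured was not tested, since the tables hold a single value per gene.

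NEAT1 had 15863 and 12635 normalised reads in the untreated libraries, 8367 and 7632 in Hdepl and 32121 and 33757 in Wdepl. No libraries of different groups overlapped, and the level without tryptophan was far above both other groups. Relative to untreated cells the log2 fold change was -0.82 (SE 0.07, limma adjusted p = 1.8e-10) after histidine depletion and 1.21 (SE 0.05, limma adjusted p = 5.3e-47) after tryptophan depletion. The level in Hdepl was 4.12-fold below that in Wdepl (log2 fold change -2.04, SE 0.04, limma adjusted p = 9.1e-13). Of 684 lncRNA genes with a mean of at least 100 in that comparison, NEAT1 ranked 36 from the lowest.

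MALAT1 had 18422 and 14352 normalised reads in untreated cells, 26379 and 21336 in Hdepl and 45749 and 45947 in Wdepl. Its level thus rose in both media, by 1.47-fold without histidine (log2 fold change 0.55, SE 0.09, limma adjusted p = 3.0e-06) and by 2.80-fold without tryptophan (1.49, SE 0.06, limma adjusted p = 3.4e-55). Without the mean-variance trend in limma, the call after histidine depletion was lost (adjusted p = 0.063). The difference between the depletions was -0.95 (SE 0.07, limma adjusted p = 8.8e-08). The 2 untreated libraries were less alike for these RNAs than for most genes: replicate 1 exceeded replicate 2 by 0.33 for NEAT1 and 0.36 for MALAT1 on the log2 scale, more than for 97.1% and 97.8% of 12480 genes. MALAT1 also differed by 0.31 between the Hdepl libraries, more than 96.8% of genes. Leaving out each library in turn and using other settings kept NEAT1 between -1.06 and -0.65 after histidine depletion and MALAT1 between 0.31 and 0.73.

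Since a ratio of 2 genes within a library does not depend on any scaling, reads of MALAT1 were divided by reads of NEAT1. The ratio was 1.16 and 1.14 in untreated cells, 3.15 and 2.80 in Hdepl and 1.42 and 1.36 in Wdepl. The Hdepl libraries stood well above the others, and the Wdepl libraries slightly above the untreated ones. With 2 libraries against 2, a two-sided exact permutation test cannot give a p below 0.333, so the ratio is given as a description.

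**Figure D2:**
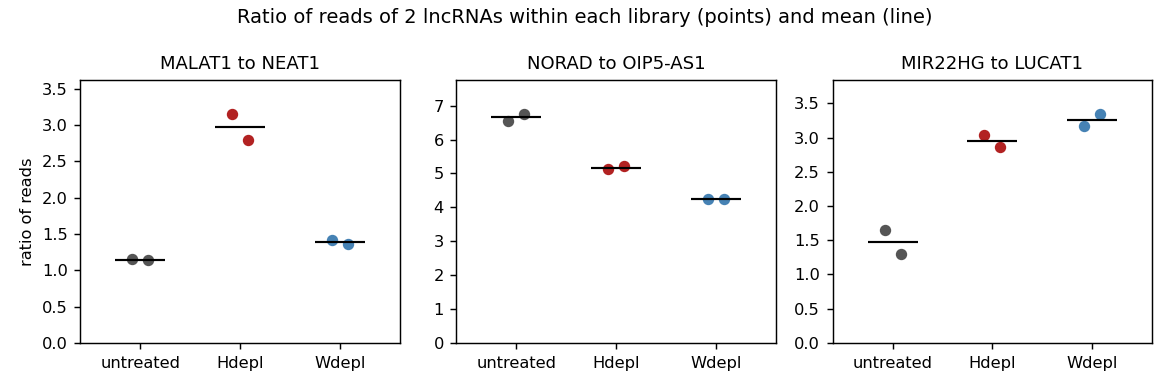
Ratio of reads of a pair of lncRNAs within each library (vertical axis, linear from 0, no unit), with a point per library and a line at the group mean. MALAT1 to NEAT1 is highest in Hdepl at 3.15 and 2.80, NORAD to OIP5-AS1 is lowest in Wdepl at 4.24 and 4.26, and MIR22HG to LUCAT1 is lower in untreated cells than in either depletion.

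Paraspeckle proteins, which assemble on NEAT1, were followed by the mRNAs of 19 of them, all of which passed the minimum. After histidine depletion 7 of these mRNAs were higher and 9 lower, with a median log2 fold change of -0.06. After tryptophan depletion, when NEAT1 was highest, 1 was higher and 16 were lower, with a median of -0.61. In the direct comparison 16 were higher without histidine and 2 lower, with a median of 0.60, while NEAT1 was lower there. Among all genes tested in that comparison, 39.9% were higher and 38.4% lower. The lean was not particular to paraspeckle proteins. Of the 17 nuclear speckle mRNAs described below, 11 were higher and 3 lower in that comparison, and of the 12 genes of the RNase P and Z list 9 were higher and 2 lower. The core proteins SFPQ and PSPC1 had the largest differences between the depletions, at 2.07 (SE 0.03, limma adjusted p = 6.7e-14) and 1.85 (SE 0.04, limma adjusted p = 8.0e-13). SFPQ was higher than untreated without histidine (1.13) and lower without tryptophan (-0.96). NONO, their usual partner, was lower without tryptophan (-0.61) and had a value of -0.02 without histidine that did not pass the test.

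Of 17 mRNAs of nuclear speckle proteins, the bodies in which MALAT1 lies, 7 were higher and 8 lower after histidine depletion (median -0.07), and 3 were higher and 10 lower after tryptophan depletion (median -0.25). TRA2A, a splicing activator, rose by 1.54 without histidine and was lower at -0.97 without tryptophan. SON, a core protein of the speckle, rose by 1.41 without histidine and had 0.06 without tryptophan, which did not pass the test. SRSF3, a splicing factor of the SR family, fell in both, at -1.03 and -1.13. Of 12 genes for RNase P and RNase Z, which trim the ends of tRNAs and free the tRNA-like RNAs, and for METTL16, which binds the MALAT1 triple helix, 6 were higher and 3 lower without histidine and 3 higher and 7 lower without tryptophan. METTL16 itself was higher by 1.56 (SE 0.05, limma adjusted p = 1.2e-18) without histidine and lower at -0.37 (SE 0.05, limma adjusted p = 2.4e-10) without tryptophan.

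FRMD8, the protein-coding gene 9249 bases before NEAT1, was higher by 0.35 without histidine (limma adjusted p = 1.0e-06) and had 0.07 without tryptophan (adjusted p = 0.21).

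**Figure D3:**
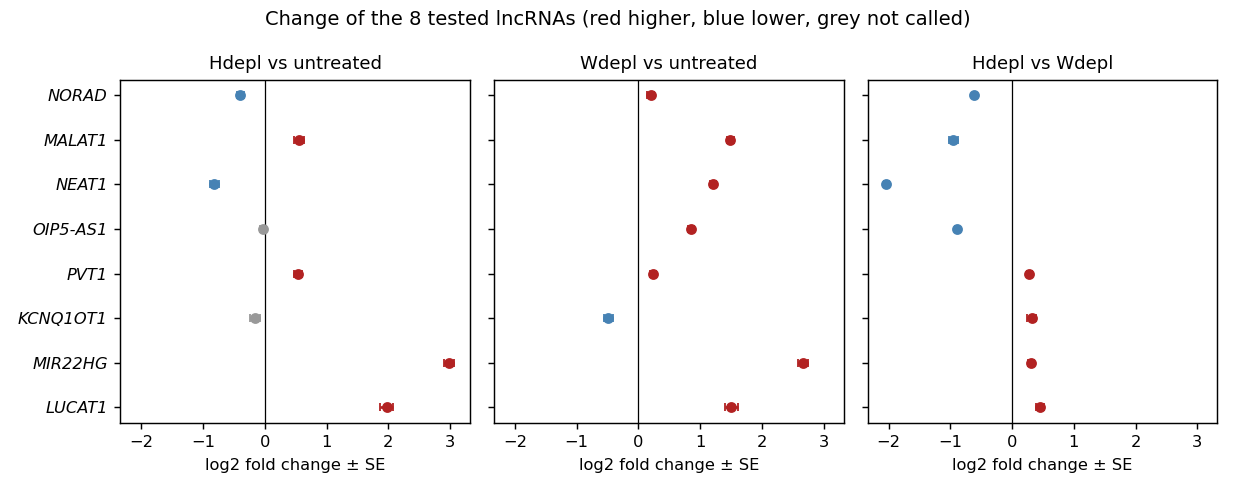
Log2 fold change (horizontal axis) with its standard error for the 8 tested lncRNAs in the 3 comparisons, in red where called higher, blue where called lower and grey where not called. MIR22HG and LUCAT1 lie far right of 0 against untreated cells in both depletions, whereas NEAT1 lies left of 0 at -0.82 in the first panel and right of it at 1.21 in the second.

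NORAD (ENSG00000260032), a single exon of 5401 bases on the minus strand at chr20:36045618-36051018, binds the Pumilio proteins, which repress mRNAs. Their recognition element was searched as TGTANATA on the strand of the transcript, in the longest annotated transcript of every gene. NORAD held 15 matches, 10 of them TGTATATA, 4 TGTAAATA and 1 TGTACATA, which is 2.78 per kilobase. The other members of the group held between 0 (MALAT1, MIR22HG, H19 and PVT1) and 0.33 per kilobase (LUCAT1), NEAT1 with 6 matches in 22743 bases and KCNQ1OT1 with 9 in 91667. Of 2141 lncRNA genes with a transcript of at least 3000 bases, 5 were as dense, NORAD among them (0.234%), as were 2 of 11143 protein-coding genes (0.0179%). A match is a run of letters and not a bound site. Of the 15, 4 are shown with their flanks because NORAD is set apart by the repetition of this element, written 5′ to 3′ on the transcript strand with the element in capitals:

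NORAD site 2, chr20:36049805-36049830: tcactactgTGTATATAgttgacaat

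NORAD site 8, chr20:36048479-36048504: ataacacttTGTAAATAgcttttaaa

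NORAD site 11, chr20:36047973-36047998: accctactgTGTATATAgcggacaaa

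NORAD site 14, chr20:36047352-36047377: atgctactgTGTATATAatggaaaac

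NORAD had 39976 and 42515 normalised reads in untreated cells, 30821 and 31364 in Hdepl and 47257 and 47961 in Wdepl. The groups did not overlap, and the largest gap was the one between Hdepl and the other groups. The log2 fold change was -0.40 (SE 0.06, limma adjusted p = 7.8e-07) without histidine and 0.20 (SE 0.06, limma adjusted p = 0.00074) without tryptophan, and -0.61 (SE 0.02, limma adjusted p = 2.3e-10) between them. The rise without tryptophan is small and its call did not hold in every setting. The value stayed near its size, but did not pass the test, without the mean-variance trend (0.20, adjusted p = 0.054), without Wdepl replicate 1 (0.22, adjusted p = 0.11) and without Wdepl replicate 2 (0.18, adjusted p = 0.18), where the lone library is assumed to vary like the other group. Under quantile normalisation its sign turned (-0.01, adjusted p = 0.85). The fall without histidine kept its call in the 14 settings tried, between -0.68 and -0.35.

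The mRNAs of 7 NORAD partners were measured beside it. After histidine depletion 5 were higher and 1 lower (median 0.35), after tryptophan depletion 3 were higher and 4 lower (median -0.27), and all 7 were higher in Hdepl than in Wdepl (median 0.67), where NORAD was lower. PUM2, a Pumilio protein, was higher by 0.55 (SE 0.05, limma adjusted p = 4.2e-10) without histidine and by 0.12 (SE 0.05, limma adjusted p = 0.018) without tryptophan. RBMX, an RNA-binding protein tied to NORAD in genome stability, was lower in both, at -0.72 and -1.27. The neighbour EPB41L1, which codes for a protein of the membrane skeleton and lies 40486 bases away, fell by 1.22 without histidine and was higher by 0.33 without tryptophan.

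OIP5-AS1 (ENSG00000247556, also called Cyrano) lies on the plus strand at chr15:41283958-41322392, in 16 annotated exon blocks of 22370 bases together. It is known for a site that pairs almost fully with miR-7 and leads to the destruction of that microRNA. The mature miR-7-5p from RefSeq (GRCh38.p14), with its seed, bases 2 to 8, in capitals, is shown with the best site in the exons of OIP5-AS1, with the 7 bases that match the seed in capitals:

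hsa-miR-7-5p: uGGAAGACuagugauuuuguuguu

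OIP5-AS1 site, chr15:41300574-41300599: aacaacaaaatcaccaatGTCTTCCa

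The seed match GTCTTCC occurs 3 times in the exons, all in block 10. At this site 15 of the 16 bases of miR-7-5p beyond the seed pair as well, with 2 unpaired bases of the target, and at the other sites 6 and 7 of 16 do. The mature microRNA was not measured by these libraries.

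OIP5-AS1 was higher in Wdepl than in untreated cells and did not pass the test in Hdepl. It had 6094 and 6295 normalised reads in untreated cells, 6022 and 6017 in Hdepl and 11139 and 11262 in Wdepl. The untreated and Hdepl libraries were close together and the Wdepl libraries lay far above them. The log2 fold change was -0.03 (SE 0.05, limma adjusted p = 0.56) without histidine and 0.85 (SE 0.05, limma adjusted p = 2.3e-37) without tryptophan, and -0.90 (SE 0.03, limma adjusted p = 2.7e-11) between the depletions. Under quantile normalisation the first of these became -0.23 and passed the test (adjusted p = 8.7e-05). Within libraries, the ratio of NORAD reads to OIP5-AS1 reads was 6.56 and 6.75 in untreated cells, 5.12 and 5.21 in Hdepl and 4.24 and 4.26 in Wdepl.

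Reads of OIP5-AS1 overlap other genes in small part: 3.39% of its exonic bases lie opposite exons of OIP5, and 3.17% on the same strand as exons of NUSAP1 and of a transcript that runs through both. Whether counting used the strand is not given in the sources used here. OIP5, which loads the centromeric histone onto chromosomes, had 367 ± 2.79 normalised reads in untreated cells, 82.1 ± 6.21 in Hdepl and 87.4 ± 12.2 in Wdepl, so it was lower in both depletions, at -2.14 and -2.07. CHP1, 2071 bases before the start of OIP5-AS1, codes for a partner of a sodium-proton exchanger and was lower at -0.40 without histidine and higher by 0.43 without tryptophan. Of 8 genes of proteins that bind OIP5-AS1 or H19, 7 were tested without histidine, with 3 higher and 4 lower, and 6 without tryptophan, with 2 higher and 4 lower. ELAVL1, the mRNA-stabilising protein HuR, was lower in both, at -0.85 and -0.36. IGF2BP3, an mRNA-binding protein of fetal tissue, was lower at -0.64 without histidine and higher by 0.92 without tryptophan.

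MIR22HG (ENSG00000186594) showed the largest rise of the group in both media. It lies on the minus strand at chr17:1711447-1717174, with 4 exon blocks of 3108 bases together, and its last block carries the hairpin of miR-22. The products of the hairpin are shown, from RefSeq (GRCh38.p14), with the seed in capitals, since they are what the host transcript is best known for:

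hsa-miR-22-3p, chr17:1713914-1713935: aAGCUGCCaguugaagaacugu

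hsa-miR-22-5p, chr17:1713952-1713973: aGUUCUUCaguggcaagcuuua

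The seeds of the 2 arms differ. The row of MIR22 itself held 0 reads in each library, so the values speak of the host transcript and not of the microRNA.

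MIR22HG had 236 and 218 normalised reads in untreated cells, 1871 and 1726 in Hdepl and 1424 and 1472 in Wdepl. Both depletions stood far above the untreated libraries and close to each other. It was 7.94-fold higher without histidine (log2 fold change 2.99, SE 0.08, limma adjusted p = 2.3e-20) and 6.33-fold higher without tryptophan (2.66, SE 0.08, limma adjusted p = 5.0e-67). The depletions differed by 0.31 (SE 0.05, limma adjusted p = 9.3e-05). Among lncRNA genes averaging 100 or more, MIR22HG ranked 18 of 657 by rise without histidine and 9 of 665 without tryptophan.

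Genes around MIR22HG did not share its pattern. WDR81, whose gene bounds overlap it, was higher by 0.70 without histidine (limma adjusted p = 1.9e-10) and had -0.04 without tryptophan, which did not pass the test. TLCD2, which lies 1070 bases away and codes for a membrane protein of lipid handling, went from 392 ± 32.8 normalised reads in untreated cells to 232 ± 24.2 in Hdepl and 1864 ± 81.5 in Wdepl. Its log2 fold changes were -0.74 and 2.24, and the difference between the depletions was -3.00 (SE 0.08, limma adjusted p = 6.6e-12). SERPINF2, an inhibitor of plasmin 25662 bases away, had 0.04 without histidine, not past the test, and was lower at -0.34 without tryptophan.

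LUCAT1 (ENSG00000248323) lies on the minus strand at chr5:91054834-91314547 in 26 exon blocks. It had 143 and 168 normalised reads in untreated cells, 615 and 604 in Hdepl and 449 and 440 in Wdepl. As with MIR22HG, no untreated library came near those of the depletions, and Hdepl stood above Wdepl. The rise was 3.94-fold without histidine (log2 fold change 1.98, SE 0.11, limma adjusted p = 1.4e-14) and 2.84-fold without tryptophan (1.51, SE 0.11, limma adjusted p = 6.2e-27), and the depletions differed by 0.45 (SE 0.07, limma adjusted p = 4.6e-05). Reads of MIR22HG relative to LUCAT1 were 1.65 and 1.30 in untreated cells, 3.04 and 2.86 in Hdepl and 3.17 and 3.34 in Wdepl.

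Both coding genes nearest to LUCAT1 outside it were also higher in both depletions, as were 39.1% of all genes tested without histidine and 36.1% without tryptophan. A tie between these genes and LUCAT1 was not tested. ARRDC3, an arrestin-like adaptor 54084 bases away, was higher by 1.50 without histidine (limma adjusted p = 3.0e-17) and by 0.91 without tryptophan (limma adjusted p = 6.5e-31). LYSMD3, a membrane protein gene 525250 bases away, was higher by 1.14 and by 1.01. ADGRV1, whose bounds overlap LUCAT1, stayed under the minimum.

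Since LUCAT1 and MIR22HG rose in both media, promoter windows from RefSeq (GRCh38.p14) were searched for 2 elements on both strands. The windows run from 250 bases before to 50 bases after a gene's start, and 6 of the genes had at least 1 (MALAT1, MIR22HG, H19, NORAD, OIP5-AS1 and LUCAT1). The element of ATF and CCAAT-enhancer binding factors, TGATGNAA, which is known from the response to amino acid shortage, is found in 3.62% of all 35116 windows and matched none of these 6. The E-box CACGTG, found in 7.26%, matched NORAD and OIP5-AS1. Neither element matched MIR22HG or LUCAT1, which says no more than that these letters are not in those windows.

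KCNQ1OT1 (ENSG00000269821) lies on the minus strand at chr11:2597308-2700003, inside the gene KCNQ1 and antisense to it, and is known to silence neighbouring genes on the paternal chromosome. It had 858 and 785 normalised reads in untreated cells, 779 and 686 in Hdepl and 601 and 572 in Wdepl. It was the one member that fell without tryptophan, by 0.49 on the log2 scale (SE 0.07, limma adjusted p = 1.2e-09). Without histidine the value was -0.16 (SE 0.08, limma adjusted p = 0.069), which did not pass the test. In fits that leave out a library, the remaining one of its group is again assumed to vary like the other group. The value passed the test with a replicate block (adjusted p = 0.030), without untreated replicate 2 (-0.22, adjusted p = 0.043) and without Hdepl replicate 1 (-0.25, adjusted p = 0.019). It shrank without untreated replicate 1 (-0.10, adjusted p = 0.35) and without Hdepl replicate 2 (-0.06, adjusted p = 0.58), and under quantile normalisation the sign turned (0.04, adjusted p = 0.67). Hdepl was above Wdepl by 0.32 (SE 0.07, limma adjusted p = 0.0016).

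Exons of the KCNQ1 gene and small RNA genes lie opposite 1.21% of the exonic bases of KCNQ1OT1. KCNQ1, a potassium channel of epithelia, had 2589 ± 288 normalised reads in untreated cells, 527 ± 36.8 in Hdepl and 2387 ± 6.29 in Wdepl, which is a change of -2.28 (SE 0.07, limma adjusted p = 1.0e-18) without histidine and of -0.12 (SE 0.05, limma adjusted p = 0.036) without tryptophan. Of 13 listed genes of the imprinted cluster other than the lncRNAs described here, 11 were tested against untreated cells. Without histidine 2 were higher and 6 lower (median -0.52), and without tryptophan 3 were higher and 8 lower (median -0.24). ASCL2, a transcription factor of intestinal stem cells, had the largest fall, at -3.57 without histidine and -1.13 without tryptophan. TRPM5, a cation channel gene, was lower at -1.80 and -0.43. PHLDA2, a growth-restraining gene of the placenta, was higher by 1.62 without histidine and lower at -0.24 without tryptophan. TSSC4, which takes part in assembly of the spliceosome, was higher in both, at 1.43 and 0.53. SLC22A18, a transporter gene, was lower at -0.52 and higher by 1.01. CDKN1C, an inhibitor of cell division that KCNQ1OT1 is known to silence in cis, had -0.12, not past the test, without histidine and was lower at -0.61 (limma adjusted p = 0.0019) without tryptophan, with 117 ± 44.5 normalised reads in untreated cells.

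H19 (ENSG00000130600), at chr11:1995166-2004552 on the minus strand, was near the limit of detection. It had 9 and 2 reads in the untreated libraries, 1 and 7 in Hdepl and 1 and 2 in Wdepl, so that the untreated and Hdepl libraries overlapped widely, the Wdepl libraries lay within the range of the Hdepl libraries, and H19 was too low in each comparison to be tested. Its last exon block carries miR-675, whose row held 0 reads in each library, and its imprinted partner IGF2 had about 1 normalised read or fewer on average in each group. No sequence of it is shown, as no result turns on it.

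PVT1 (ENSG00000249859) lies on the plus strand at chr8:127794526-128187101, in 59 exon blocks, and starts 51575 bases after MYC. It had 4868 and 4078 normalised reads in untreated cells, 6734 and 6097 in Hdepl and 5223 and 5354 in Wdepl. Hdepl was highest without overlap, and Wdepl lay above the untreated libraries by less than these differed from each other. The log2 fold change was 0.53 (SE 0.07, limma adjusted p = 7.1e-08) without histidine and 0.24 (SE 0.05, limma adjusted p = 8.0e-06) without tryptophan. The second call was lost without the mean-variance trend (adjusted p = 0.14) and with DESeq2 (adjusted p = 0.15). Its size rested on the untreated libraries, with 0.37 without untreated replicate 1 and 0.11 without untreated replicate 2. Between the depletions the difference was 0.28 (SE 0.04, limma adjusted p = 7.8e-05). Untreated replicate 1 exceeded replicate 2 by 0.26, more than for 94.5% of genes.

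MYC, the transcription factor gene beside PVT1, did not move with it. It had 15305 ± 711 normalised reads in untreated cells, 14388 ± 193 in Hdepl and 8795 ± 209 in Wdepl. Its log2 fold change was -0.08 (SE 0.05, limma adjusted p = 0.17) without histidine and -0.81 (SE 0.05, limma adjusted p = 1.1e-34) without tryptophan. Of the 10 genes listed for the MYC network, MYC included, 4 were higher and 4 lower without histidine, and 2 were higher and 4 lower without tryptophan. MXD1, which competes with MYC for its partner MAX, was higher by 0.73 in both. MXD3, of the same family, was lower at -1.61 and -1.43.

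CCAT1, a transcript raised in colon cancer, spans chr8:127207382-127219268 in RefSeq (GRCh38.p14). In gencode release 44 that span lies within the lncRNA gene CASC19, on the minus strand at chr8:127072694-127227541. The reads were counted on gencode release 38, which was not used here, and 319 identifiers of the tables have no match in release 44, so where reads from CCAT1 are listed was not tested. CASC19 had 15634 ± 6.79 normalised reads in untreated cells, 15887 ± 1291 in Hdepl and 14721 ± 464 in Wdepl. It passed no test against untreated cells, with log2 fold changes of 0.03 (limma adjusted p = 0.64) and -0.09 (limma adjusted p = 0.069), and differed by 0.11 (SE 0.04, limma adjusted p = 0.045) between the depletions.

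To set the group beside other lncRNAs, 30 further named lncRNA genes were followed, of which 23 passed the minimum. Without histidine 8 of these were higher and 9 lower (median -0.10), and without tryptophan 13 were higher and 6 lower (median 0.28), while between the depletions 5 were higher in Hdepl and 8 lower (median -0.20). The background over all tested lncRNA genes was 31.0% higher and 31.9% lower without histidine, and 28.5% higher and 23.7% lower without tryptophan. Between the depletions, 28.7% of tested lncRNA genes were higher in Hdepl and 33.6% lower. CYTOR, which is raised in many tumours, went the opposite way to NEAT1: it was higher by 2.05 (SE 0.08, limma adjusted p = 1.3e-17) without histidine and lower at -2.10 (SE 0.14, limma adjusted p = 5.8e-31) without tryptophan. NKILA, named for its action on NF-kB, was higher by 2.81 and 0.53. HOTAIR, transcribed from the HOXC cluster, was lower at -2.57 and -0.72.

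Genes whose pattern over the 6 libraries was most like that of each lncRNA were taken by the smallest root mean square difference of log2 values, each relative to its untreated mean, among the 12448 genes averaging 100 normalised reads or more. NORAD was followed most closely, by NCOR1, a corepressor of nuclear receptors, at 0.008. For OIP5-AS1 the nearest was the potassium channel gene KCNK6 at 0.025, for PVT1 the lncRNA LINC01138 at 0.029, for KCNQ1OT1 the pseudogene GTF2IP13 at 0.029 and for MIR22HG the potassium channel gene KCND1 at 0.030. MALAT1 and LUCAT1 had looser companions, an unnamed lncRNA (ENSG00000272079) at 0.080 and the linker histone gene H1-2 at 0.082. NEAT1 had none closer than MAPK15, a kinase gene, at 0.126. With so few libraries against so many genes, a small difference of this kind is a description of these samples.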

How the data were processed

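RNA-seq of HT29 cells was used. Per the labels and methods, the authors aligned reads with STAR 2.7.10a to GRCh38, used HTSeq 2.0.5 to count over exons of gencode 38 and deposited DESeq2-normalised read counts (a signal, never negative) in a table per depletion, each with the same untreated libraries. The methods speak of exons of protein-coding genes, whereas the tables list 60676 genes of all types with reads on non-coding genes, and the sources used here do not resolve this. Treatment of molecular identifiers, strand and multiply mapped reads is not given in the sources used here. Whole reads were recovered from the steps of the values (100% whole within 0.01 reads), and rescaled together for levels and for Hdepl against Wdepl. Recovered totals, 46390819 to 64388876 reads, differ from the labels' average yield, and their precision covers counting error only.

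Names came from gencode 44 (60357 of 60676 identifiers matched). limma 3.58.1 in R 4.3.3 (trend on, two-sided) was run on log2(value + 1) with a mean of at least 10, Benjamini-Hochberg over all genes. The code was tested on simulated counts. On recovered reads edgeR 4.0.16 called 7169 genes higher and 7111 lower without histidine, and 6490 and 6349 without tryptophan. Alternatives were pseudocounts of 0.5 and 8, other filters, no trend, quantile normalisation, edgeR, DESeq2 1.42.0, a fit on all 6 libraries, a fold limit, a replicate block, shares of protein-coding reads and each library left out.

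The members and gene lists were chosen with earlier results of these data known. Named genes were all members, their nearest coding neighbours, MYC, up to 3 genes per list and comparison by largest change among those called with a mean of at least 100 in the higher group, and the 3 most like genes per member, of which not all are printed. NONO, PUM2 and TSSC4 lie outside this rule and were picked after values were seen. Sequences came from gencode 44, GRCh38 and RefSeq, read with pysam 0.24.0. Some genes and sequences are not reported here.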

Additional observations from a re-analysis of the deposited data

How the results depend on the processing

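Over 24 log2 fold changes of the 8 tested lncRNAs, 324 of 336 values under other settings kept their direction and side of the threshold. A limit of 1 on the absolute log2 fold change left 2 called without histidine (MIR22HG and LUCAT1), 4 without tryptophan (NEAT1, MALAT1, MIR22HG and LUCAT1) and 1 between the depletions (NEAT1), in place of 6, 8 and 8. Quantile normalisation turned KCNQ1OT1 without histidine to 0.041 (adjusted p = 0.67) and NORAD without tryptophan to -0.0054 (adjusted p = 0.85), and the cause was not tested. Leaving out each library gave 6 to 7 called without histidine, 7 to 8 without tryptophan and 8 between the depletions.

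Replicate numbers share no stated culture or day, and same-numbered deviations correlated at 0.11 (untreated and Hdepl), -0.02 (untreated and Wdepl) and -0.05 (Hdepl and Wdepl) over 13913 genes. With the replicate block 7, 8 and 8 members were called, the added one being KCNQ1OT1 (-0.16, adjusted p = 0.030), and over all genes 7311 were higher and 7121 lower without histidine in place of 7149 and 6981. H19, at 1 to 9 reads per library, stayed under the minimum mean and was not tested.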
